A study of Mus musculus with 20 samples.

Results

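Messenger RNA of mouse cells at day 10 of the conversion of embryonic stem cells to epiblast stem cells was compared with that at day 4, with both cell lines of the study pooled. The comparison took every library that the labels place at either day, which gave 8 of the 20 libraries of the series. At day 10 and again at day 4 there were 2 libraries of PGK, a female line, and 2 of E14, a male line, from the differentiation experiments named diff2 and diff3. All cells came from cultures in 2i, the medium with inhibitors that holds embryonic stem cells in the naive state. They were then moved to N2B27 medium with activin A and Fgf2 on fibronectin, were split at day 4, and were split repeatedly after that. No group carried a transgene or a mutation that the labels name. Each sex is represented by 1 line, so line and sex cannot be told apart. The diff2 libraries of these days bear a library code in their titles and the diff3 libraries do not, so code and experiment cannot be told apart either.

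Epiblast stem cells resemble the epiblast after implantation: they are pluripotent but primed for differentiation, and activin and FGF signals keep them in that state. Activin acts through Smad proteins, and at higher activity the same pathway turns on endoderm and mesendoderm genes in the gastrulating embryo. Naive cells grown in 2i have little DNA methylation, and many germ cell genes with CpG-rich promoters, which DNA methylation and repressor complexes hold silent in the body's other cells, are transcribed there.

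Total counts ranged from 2020254 to 25556948 in the 8 libraries. The shallow one was the day 4 library of E14 diff3, in which 3 counts equal 1.53 CPM, against 0.1204 to 0.2472 CPM in the others. CPM here means counts scaled to a common library total after TMM correction, which removes differences in library composition, and values of 4 libraries are given in the order PGK diff2, PGK diff3, E14 diff2 and E14 diff3. The day 4 library of PGK diff3 stood apart for several genes of mesendoderm. It had 487.4 CPM of T, the transcription factor brachyury, and the other 3 day 4 libraries had 27.9, 3.49 and 5.10 CPM. The core pluripotency genes were present on both days. Pou5f1, the transcription factor Oct4, measured 822.2, 417.6, 582.0 and 1247 CPM at day 10, against 1256, 1044, 1332 and 815.7 CPM at day 4. The 2 ranges overlapped, and no member of the list of 10 core pluripotency genes was called changed. Their median log2 fold change was −0.452. The day 10 libraries lay wholly below the day 4 libraries for 2 of the 10 and wholly above for 0, against 4.05% and 6.33% of all genes tested. In bulk libraries, fewer cells that express a gene and less RNA per cell cannot be told apart.

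Of 13136 genes tested, 266 changed between the days, which is 2.02%. At day 10, 187 genes were higher (1.42%) and 79 were lower (0.601%) than at day 4. A gene is called changed here when edgeR's quasi-likelihood test, with line as a block, gave an adjusted p under 0.05. At least 4-fold differences made up 149 of the rises and 62 of the falls, and the median log2 fold change of all genes tested was 0.0176. All 187 genes called higher were higher at day 10 in all 4 pairs of libraries from the same line and experiment, and 78 of the 79 genes called lower were lower in all 4. The day 10 and day 4 libraries did not overlap for 179 of the genes called higher and 73 of those called lower. The same libraries made the calls, so the selection itself fixes much of these counts of pairs and of overlap. Over all genes tested, the day 10 libraries lay wholly above the day 4 libraries for 832 genes (6.33%) and wholly below for 532 (4.05%). Without the day 4 library of PGK diff2 the count of calls was 93, without the day 10 library of PGK diff3 it was 100, without the day 4 library of E14 diff2 it was 103, without the day 10 library of PGK diff2 it was 140 and without the day 10 library of E14 diff3 it was 158.

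**Figure D1:**
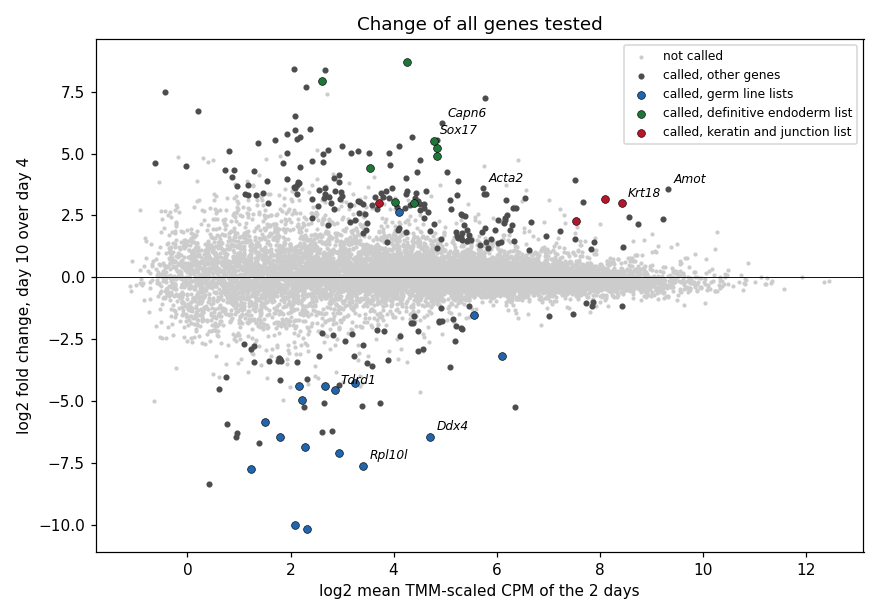
Log2 fold change of day 10 over day 4 (vertical axis) against the log2 mean CPM of both days (horizontal axis), 1 point per gene tested. Grey points are the genes not called, and dark points the 266 called, with called members of the germ line, definitive endoderm and keratin lists in colour; fitted values of genes without counts on 1 day depend on the prior count of the fit.

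The smallest adjusted p belonged to a fall. Ddx4, the germ cell RNA helicase also called Vasa, measured 0.906, 0.646, 0.399 and 0.482 CPM at day 10, against 58.1, 43.1, 49.3 and 56.1 CPM at day 4. Every day 10 library was far below every day 4 library. The log2 fold change was −6.44 ± 0.37 (SE, n = 4 libraries per day), with an adjusted p of 0.000104. Listed germ cell genes fell with it. The lists and their members were chosen with earlier results of these data known, so their counts and medians rest in part on that choice. Of 24 genes of the piRNA pathway and germ cell RNA, 14 were tested, of which 7 fell (Dazl, Ddx4, Mael, Mov10l1, Piwil2, Tdrd1 and Tdrd12) and 1 rose (Tdrd7), with a median log2 fold change of −2.89. Of 32 meiosis and synaptonemal complex genes in the tables, 22 were tested and 9 fell (Hormad1, Rpl10l, Slc25a31, Stag3, Syce1, Sycp2, Sycp3, Tex11 and Tuba3a), none rose, and the median was −2.17. Under the count filter 10 genes of each list had too few reads to test.

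Tdrd1, a Tudor protein that binds Piwi proteins, measured 0.742, 0.689, 0.160 and 0.723 CPM at day 10, against 19.1, 15.4, 14.6 and 6.63 CPM at day 4, a log2 fold change of −4.56 ± 0.57 (SE, adjusted p = 0.00773). Mael, the piRNA factor Maelstrom, had no counts in either PGK library at day 10 and 0.0799 and 0.361 CPM in the E14 libraries, against 23.2, 9.81, 18.6 and 9.18 CPM at day 4 (log2 fold change −7.10 ± 0.98 SE, adjusted p = 0.00861). For both genes the days were far apart in each of the 4 pairs. Mov10l1, the helicase that starts piRNA processing in the mouse, had no counts in any day 10 library, against 16.3, 11.3, 5.53 and 1.02 CPM at day 4. That is at least 207-fold lower at day 10, with 3 counts over the 4 day 10 libraries as the floor (adjusted p = 0.0106). Dazl, an RNA-binding protein that germ cells need, had 0.0824, 0, 0 and 0.201 CPM at day 10, against 7.91, 3.57, 7.35 and 8.67 CPM at day 4 (adjusted p = 0.0104).

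Hormad1, a protein of the meiotic chromosome axis, was likewise without counts in all 4 day 10 libraries, against 30.2, 5.54, 2.11 and 2.04 CPM at day 4, at least 242-fold lower (adjusted p = 0.0136). Rpl10l, a retrogene copy of ribosomal protein gene Rpl10 that works in the testis, had 0.577 CPM in PGK diff2 and no counts in the other 3 libraries at day 10, against 52.2, 18.9, 8.37 and 5.10 CPM at day 4 (log2 fold change −7.61 ± 1.03 SE, adjusted p = 0.00861). Within day 4 both genes were higher in the PGK libraries than in the E14 libraries, and the PGK diff2 library was the highest. Because Rpl10l resembles its parent gene, its reads may be shared with it. Sycp2, a protein of the synaptonemal complex, measured 0.165, 0.517, 0.719 and 0.241 CPM at day 10, against 7.77, 7.88, 12.7 and 6.12 CPM at day 4 (adjusted p = 0.00953). Tex11, an X-linked meiotic crossover gene, had a single read at day 10 in all, in PGK diff2, against 9.78, 2.16, 4.66 and 2.04 CPM at day 4 (adjusted p = 0.00937). The day groups of these genes did not overlap. Sycp3, which pairs with Sycp2, differed between lines within a day: it measured 2.72, 1.33, 16.0 and 58.2 CPM at day 10, against 39.2, 25.1, 106.4 and 297.9 CPM at day 4 (adjusted p = 0.0229). Its E14 libraries at day 10 overlapped the PGK libraries at day 4, so the call rests on the block for line, without which the adjusted p was 0.328.

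The germ line calls of Ddx4, Tdrd1, Mael, Mov10l1, Dazl, Hormad1, Rpl10l, Sycp2 and Tex11 kept an adjusted p of at most 0.0438 when any 1 of the 8 libraries was left out, the highest being that of Hormad1. Syce1, Tdrd12, Piwil2, Tuba3a, Stag3 and Sycp3 lost their calls in 3 to 7 of those 8 fits, with an adjusted p of up to 0.121, which Syce1 had without the day 4 library of E14 diff2. Slc25a31 lost its call without the day 10 library of E14 diff3 (adjusted p = 0.0502) and without the day 4 library of PGK diff2 (0.0579). Tdrd7, a Tudor protein that is also made outside the germ line, went the other way. It measured 24.4, 27.5, 46.2 and 20.9 CPM at day 10, against 4.99, 9.15, 3.35 and 2.04 CPM at day 4 (log2 fold change 2.64 ± 0.48 SE, adjusted p = 0.0233), and it lost its call in 4 of the fits, with an adjusted p of up to 0.102 without the day 4 library of E14 diff2.

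The germ cell genes did not share 1 course before day 4, as the plot of levels over the 5 stages shows. Ddx4 had 4.73, 3.42, 12.3 and 14.2 CPM at day 0 and Tdrd1 had 0, 0.244, 1.05 and 0 CPM, so both were lower at day 0 than at day 4 in every line and experiment. Rpl10l had 138.9, 185.4, 92.9 and 72.2 CPM at day 0 and Dazl had 128.5, 95.4, 82.3 and 11.9 CPM, so both were higher at day 0 than at day 4 in every pair. At days 19 to 23 and at days 27 to 30 Hormad1 and Rpl10l had no counts in any of the 8 libraries, and Ddx4 stayed between 0 and 0.595 CPM. Among all 79 genes called lower, the mean at day 0 was below that at day 4 for 33 (41.8%) and above it for 46 (58.2%), against 54.8% and 45.2% of all genes tested; the day 4 level enters the call too. The 8 later libraries lay wholly below the 4 day 4 libraries for 64 of the 79 (81%), against 639 of the 13136 genes tested (4.86%); the day 4 libraries enter both the call and this count, so the selection itself fixes much of that contrast.

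**Figure D2:**
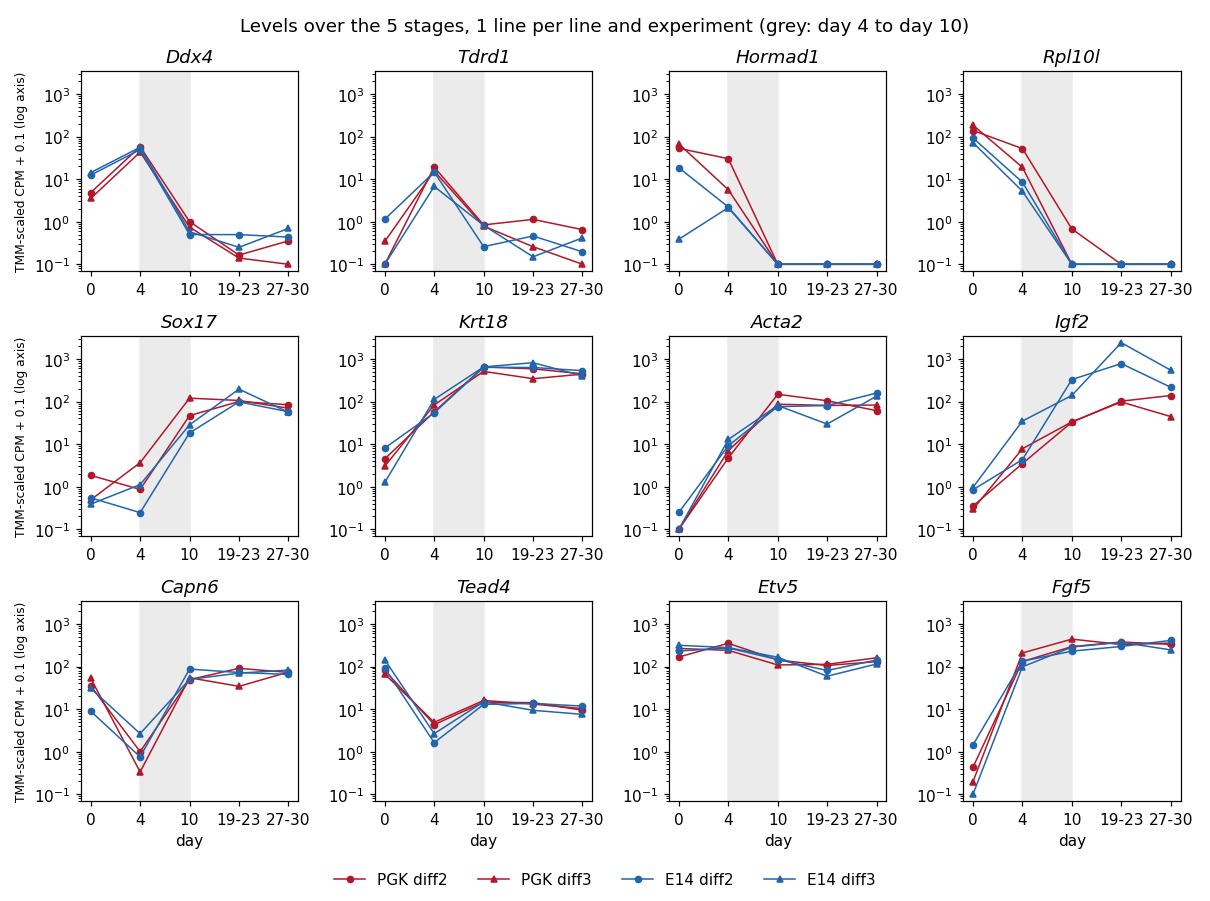
CPM plus 0.1 on a log axis at day 0, day 4, day 10, days 19 to 23 and days 27 to 30, 1 trace per line (red PGK, blue E14) and experiment (circles diff2, triangles diff3), with the step from day 4 to day 10 in grey. Ddx4 and Tdrd1 peak at day 4, Hormad1 and Rpl10l are at or near 0 from day 10 on, and Capn6 and Tead4 dip at day 4.

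The promoters of germ cell genes are shown because many such genes are known in the mouse to be silenced through the E-box CACGTG, which Max and Mga bind, and the site TCCCGC, which E2f6 binds. The windows are RefSeq sequences of build GRCm38.p6, from 250 bases before to 50 bases after the transcription start, printed along the gene's own strand. Capitals mark CACGTG and TCCCGC, the second on either strand (GCGGGA where it lies on the other). Ddx4 lies at chr13:112652261-112652560 on the minus strand, Tdrd1 (the first of 3 windows listed) at chr19:56825959-56826258 on the plus strand, Mael at chr1:166238695-166238994 on the minus strand and Rpl10l at chr12:66284352-66284651 on the minus strand.
Ddx4: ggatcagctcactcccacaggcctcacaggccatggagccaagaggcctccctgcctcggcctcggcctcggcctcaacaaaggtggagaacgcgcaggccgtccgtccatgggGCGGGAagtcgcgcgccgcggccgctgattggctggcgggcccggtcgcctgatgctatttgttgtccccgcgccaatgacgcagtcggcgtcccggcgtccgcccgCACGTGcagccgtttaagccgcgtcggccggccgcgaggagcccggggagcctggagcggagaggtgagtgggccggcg
Tdrd1: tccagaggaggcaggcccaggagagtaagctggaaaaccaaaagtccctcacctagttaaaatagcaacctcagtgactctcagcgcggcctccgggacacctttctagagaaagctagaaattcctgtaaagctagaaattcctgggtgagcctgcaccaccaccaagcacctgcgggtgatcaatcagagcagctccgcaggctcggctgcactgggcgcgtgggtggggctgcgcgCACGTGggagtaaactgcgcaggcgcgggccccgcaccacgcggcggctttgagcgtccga
Mael: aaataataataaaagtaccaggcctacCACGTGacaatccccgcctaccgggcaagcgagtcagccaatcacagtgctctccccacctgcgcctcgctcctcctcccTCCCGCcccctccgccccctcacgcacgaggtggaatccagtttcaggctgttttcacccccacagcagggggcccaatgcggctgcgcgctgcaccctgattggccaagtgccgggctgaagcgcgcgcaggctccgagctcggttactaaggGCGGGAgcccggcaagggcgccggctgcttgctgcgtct
Rpl10l: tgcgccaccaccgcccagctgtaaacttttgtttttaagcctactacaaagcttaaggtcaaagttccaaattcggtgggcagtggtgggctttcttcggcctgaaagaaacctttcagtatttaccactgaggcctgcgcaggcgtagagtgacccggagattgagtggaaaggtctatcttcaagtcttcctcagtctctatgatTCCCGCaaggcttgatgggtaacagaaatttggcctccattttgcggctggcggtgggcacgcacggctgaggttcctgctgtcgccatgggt
The Ddx4 window holds a CACGTG that begins 29 bases before the start and a TCCCGC 136 bases before it, with 38 CG dinucleotides. In Tdrd1 a CACGTG begins 11 bases before the start. Mael holds a CACGTG 223 bases before the start and 2 TCCCGC, and Rpl10l holds 1 TCCCGC 43 bases before it. No 2 matches overlap.

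Of the 16 germ line list members called lower, 14 matched a promoter window by symbol, with the first window of each gene used. CACGTG was present in 8 of the 14 (57.1%) and TCCCGC in 8 (57.1%). At least 1 of them was held by 10 (71.4%), against 43.6% of the windows of all genes tested. Of all 79 genes called lower, 57 matched a window, the 14 included, and 12 (21.1%) held CACGTG and 24 (42.1%) TCCCGC. Listed germ line genes that did not fall were not counted, so the shares cannot separate the lists from the fall. Among the windows of all genes tested, 10.4% held CACGTG and 37.3% held TCCCGC. Over all 32851 windows the shares were 7.15% and 20.0%. The other motifs searched on both strands were TATAAA and the CArG box, the site of serum response factor. The CArG box was searched as CCWWWWWWGG, with W for A or T, and only exact matches of any motif were counted. Neither was found in these 14 windows. TATAAA is in 13.6% of all windows and the CArG box in 1.63%, and among the windows of all genes tested the shares were 6.59% and 1.29%. The median number of CG dinucleotides was 20 in the 14 windows, 21 over all genes tested and 7 over all windows. These counts are descriptions and were not tested.

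Few genes with oocyte and early embryo roles had enough reads to test. Of 24 oocyte and preimplantation genes, 4 were tested and 2 fell, Ooep and Nlrp14. Ooep, of the maternal complex under the egg membrane, measured 1.07, 0.388, 0.160 and 0 CPM at day 10, against 37.3, 6.43, 4.29 and 0.510 CPM at day 4 (adjusted p = 0.0295), and the lowest day 4 library lay within the day 10 range. Zscan4c, a gene of the two-cell embryo with near-identical copies among which reads may be split, had no counts at day 10, against 4.37, 1.69, 2.04 and 2.55 CPM at day 4, at least 64.6-fold lower (adjusted p = 0.0185). Without 1 library, the adjusted p of Ooep reached 0.137 (without the day 4 library of PGK diff2), that of Nlrp14 0.111 (without the same library) and that of Zscan4c 0.0669 (without the day 4 library of E14 diff2). Among genes of the DNA methylation machinery and repressors of germ line promoters there was 1 call. Of 14 methylation genes, all tested, only Dnmt3a, a de novo DNA methyltransferase, was called. It measured 152.0, 115.3, 151.3 and 146.3 CPM at day 10, against 351.6, 187.8, 416.9 and 315.2 CPM at day 4 (log2 fold change −1.17 ± 0.25 SE, adjusted p = 0.0479, and up to 0.156 without 1 library, the day 4 library of PGK diff2). Its partner Dnmt3b was not called, with 956.0, 723.6, 383.2 and 720.5 CPM at day 10, against 1454, 842.1, 2195 and 1126 CPM at day 4 (adjusted p = 0.212). None of 16 repressors of germ line promoters was called, and their median log2 fold change was −0.23. Of the 16, 8 were lower at day 10 in all 4 pairs and 1 was higher. How often all genes tested moved alike in the 4 pairs was not counted, so these 2 counts have no reference. The day 10 libraries lay wholly below for 3 and wholly above for 1, against 4.05% and 6.33% of all genes tested. The summed level of the 16 was 2574 to 3239 CPM at day 10 and 3728 to 4996 CPM at day 4. The list was not tested as a set.

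Part of the naive pluripotency genes fell. Of 24 naive pluripotency genes, 20 were tested, 4 fell (Dppa2, Dppa4, Dppa5a and Zfp42) and none rose, with a median of −1.22. Dppa4, a chromatin protein of early embryos and pluripotent cells, measured 11.8, 4.83, 0.959 and 5.06 CPM at day 10, against 88.5, 57.1, 41.7 and 63.2 CPM at day 4 (log2 fold change −3.61 ± 0.55 SE, adjusted p = 0.012, and at most 0.0356 without any 1 library). Zfp42, the naive marker Rex1, measured 3.46, 2.54, 1.36 and 1.93 CPM at day 10, against 39.2, 22.0, 7.78 and 6.12 CPM at day 4 (log2 fold change −2.75 ± 0.45 SE, adjusted p = 0.0164). The day groups of both did not overlap. Zfp42 lost its call in 4 of the 8 fits that leave out a library, Dppa5a in 4 and Dppa2 in 2, with an adjusted p of up to 0.0854 for Dppa5a without the day 4 library of PGK diff2. Nanog was not called, with 67.7, 54.3, 81.5 and 80.0 CPM at day 10, against 159.0, 99.8, 86.4 and 79.1 CPM at day 4 (adjusted p = 0.39), nor was Sox2 (adjusted p = 0.945). Tdh, the threonine dehydrogenase of naive cells, measured 2.80, 1.03, 0.719 and 18.6 CPM at day 10, against 113.0, 53.3, 14.3 and 1.53 CPM at day 4. In E14 diff3 it was higher at day 10, in the other 3 pairs lower, and its adjusted p was 0.531 with all libraries and 0.0385 without the day 10 library of E14 diff3.

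Of all lists described, that of definitive endoderm held the most genes called higher. The lists and their members were chosen with earlier results of these data known, so this ranking rests in part on that choice. Of 20 definitive endoderm genes, 18 were tested and 8 rose (Cxcr4, Foxa1, Foxq1, Gata4, Hhex, Shh, Sox17 and Spink3), none fell, and the median log2 fold change was 3.24. Sox17, the transcription factor that specifies endoderm, measured 46.7, 120.1, 18.2 and 28.3 CPM at day 10, against 0.763, 3.57, 0.146 and 1.02 CPM at day 4. Each day 10 library was above all day 4 libraries, and within both days PGK diff3 was the highest. The log2 fold change was 5.52 ± 0.67 (SE), with an adjusted p of 0.00773.

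Foxa1, a pioneer factor of endoderm, measured 22.9, 44.4, 12.2 and 8.99 CPM at day 10, against 1.11, 2.35, 0.218 and 1.02 CPM at day 4 (log2 fold change 4.41 ± 0.54 SE, adjusted p = 0.00773). Foxq1, a forkhead factor, measured 49.7, 142.2, 8.31 and 24.4 CPM at day 10, against 1.32, 3.89, 0.509 and 0 CPM at day 4 (log2 fold change 5.22 ± 0.63 SE, adjusted p = 0.00773). Cxcr4, the chemokine receptor used to sort definitive endoderm, measured 40.9, 150.7, 12.9 and 18.5 CPM at day 10, against 1.11, 5.30, 0.509 and 0.510 CPM at day 4 (log2 fold change 4.89 ± 0.62 SE, adjusted p = 0.00789). PGK diff3 was the highest library for these genes too on both days. Spink3, a secreted trypsin inhibitor, measured 49.5, 64.1, 16.8 and 21.7 CPM at day 10, against 4 reads in all at day 4. Shh, the hedgehog ligand of the node and gut, measured 25.7, 10.9, 6.63 and 5.06 CPM at day 10, against 2 reads in all at day 4 (adjusted p = 0.00937).

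The calls of Sox17, Foxa1, Foxq1, Cxcr4, Spink3 and Shh held without any 1 library, with an adjusted p of at most 0.0341. Gata4 lost its call without the day 10 library of PGK diff3 (adjusted p = 0.0649) and without the day 4 library of PGK diff2 (0.0515), and Hhex in 4 fits (up to 0.0747, without the day 10 library of PGK diff3). Foxa2, the forkhead factor of node, floor plate and endoderm, measured 41.4, 108.1, 11.3 and 23.8 CPM at day 10, against 3.68, 22.3, 0.218 and 2.04 CPM at day 4. It was higher at day 10 in all 4 pairs but not called (adjusted p = 0.0725); with each pair of libraries as a block the adjusted p was 0.0149, and without the day 4 library of PGK diff3 it was 0.0212. Gata6 was not called either, with 23.1, 89.9, 5.19 and 11.6 CPM at day 10, against 0.416, 11.3, 0 and 6.12 CPM at day 4 (adjusted p = 0.336). It was higher at day 10 in all 4 pairs, and its adjusted p was 0.0775 with each pair as a block, 0.0416 with the experiment number added to line, 0.0231 in the diff2 libraries alone and 0.00394 in the diff3 libraries alone. Extraembryonic endoderm shares genes with definitive endoderm. Of its 23 listed genes 18 were tested and 4 rose (Col4a2, Gata4, Plat and Sox17), while Afp, Ttr, Apoa1, Amn and Sox7 had too few reads to test.

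Of 27 primitive streak and mesoderm genes, 17 were tested and 2 rose, Bmp2 and Isl1, with a median of 1.18. Isl1 lost its call in 6 of the fits without 1 library, with an adjusted p of up to 0.128 without the day 4 library of PGK diff2. Neither T nor Eomes, the T-box factors of the streak, was called. T measured 168.9, 278.1, 64.2 and 241.3 CPM at day 10, against 27.9, 487.4, 3.49 and 5.10 CPM at day 4. It was higher at day 10 in 3 of 4 pairs and lower in PGK diff3, and its adjusted p was 0.537 with all libraries and 0.0209 without the day 4 library of PGK diff3. Eomes measured 88.0, 222.4, 29.4 and 345.1 CPM at day 10, against 57.3, 201.8, 12.9 and 3.57 CPM at day 4 (adjusted p = 0.416).

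Of 21 neuroectoderm genes, 9 were tested and 2 rose. Hesx1, a homeobox repressor of the anterior epiblast and forebrain, measured 5.03, 16.6, 4.15 and 7.75 CPM at day 10, against a single read in the 4 day 4 libraries (adjusted p = 0.00773). Irx3, an Iroquois homeobox factor, measured 19.1, 20.2, 11.1 and 6.10 CPM at day 10, against 1.803, 2.16, 0.218 and 0.510 CPM at day 4 (log2 fold change 3.85 ± 0.53 SE, adjusted p = 0.00861). The other 12, among them Pax3 and Six3, had too few reads to test. Of 19 trophoblast genes, 9 were tested and 3 rose (Krt7, Sox21 and Tead4), and Cdx2, Elf5 and Tfap2a had too few reads to test. Tead4, a Hippo pathway transcription factor, measured 14.3, 15.9, 12.8 and 14.7 CPM at day 10, against 4.23, 4.79, 1.53 and 2.55 CPM at day 4 (adjusted p = 0.0267, and up to 0.0888 without the day 4 library of E14 diff2). At day 0 it had 81.2, 66.4, 91.4 and 143.6 CPM, more than at either day.

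**Figure D3:**
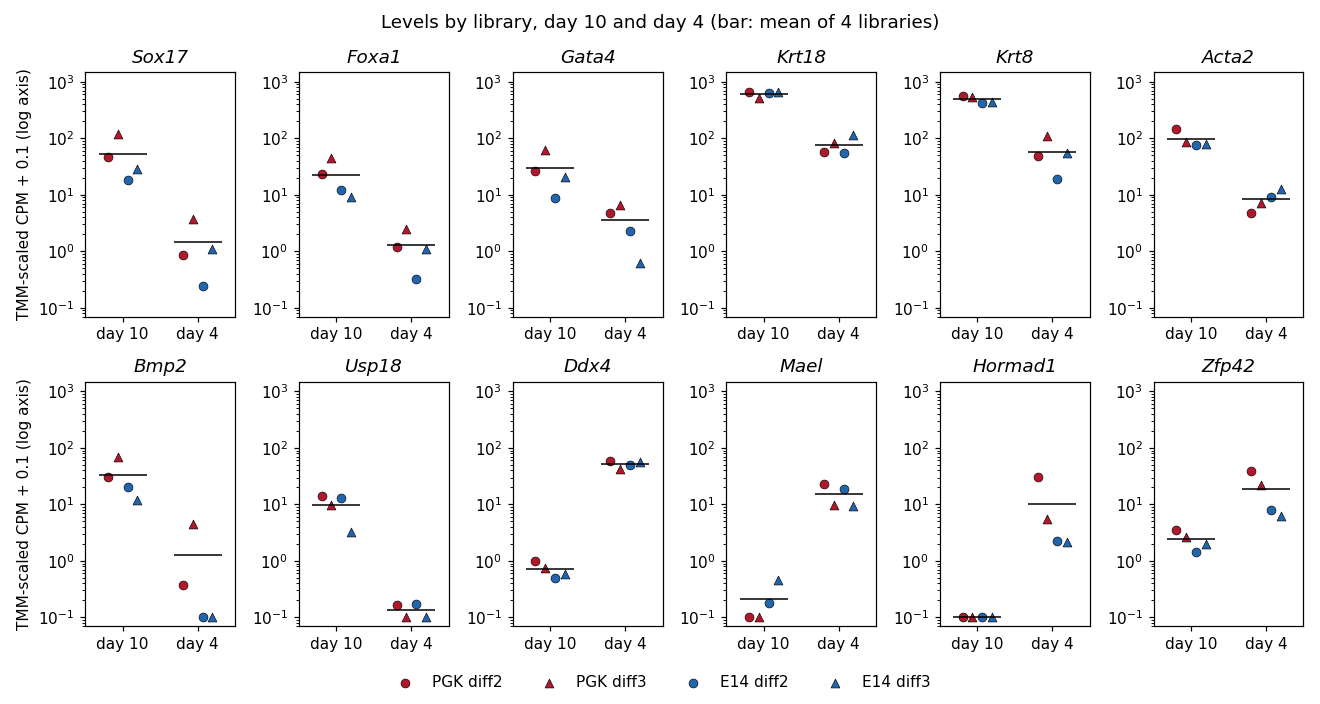
CPM plus 0.1 on a log axis in each of the 4 day 10 libraries (left in each panel) and the 4 day 4 libraries (right), for 12 genes. Colours give the line, shapes the experiment, and bars the mean of 4 libraries; the days do not overlap for any of the 12, and Bmp2, Usp18, Mael and Hormad1 reach 0 counts in some libraries of the lower day.

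The keratins called were Krt7, Krt8 and Krt18, all higher at day 10. Krt18, an intermediate filament protein of simple epithelia, measured 652.4, 511.6, 636.7 and 650.8 CPM at day 10, against 57.2, 83.1, 54.4 and 112.2 CPM at day 4. The 4 day 10 libraries lay close together, and the log2 fold change was 2.999 ± 0.281 (SE, adjusted p = 0.00233). Its filament partner Krt8 measured 563.9, 546.8, 415.3 and 432.3 CPM at day 10, against 48.1, 110.2, 18.7 and 54.1 CPM at day 4 (log2 fold change 3.18 ± 0.40 SE, adjusted p = 0.00789). Both calls held without any 1 library, with an adjusted p of at most 0.0252 for Krt8. Of the 25 genes of keratins and epithelial junctions, 23 were tested and 4 rose (Dsp, Krt18, Krt7 and Krt8), none fell, and the median was 0.38; Krt20 and Krt23 had too few reads to test. The day 10 libraries lay wholly above the day 4 libraries for 7 of the 23 and wholly below for 1, against 6.33% and 4.05% of all genes tested. The junction gene Cdh1, E-cadherin, measured 1497, 1172, 1120 and 1045 CPM at day 10, against 1233, 1048, 987.9 and 807.0 CPM at day 4. It was higher at day 10 in each pair but was not called (log2 fold change 0.24 ± 0.20 SE, adjusted p = 0.675). Dsp, the desmosome protein desmoplakin, lost its call without the day 10 library of PGK diff3 (adjusted p = 0.0528) and the day 4 library of PGK diff2 (0.0533), and Krt7 without the day 10 library of PGK diff3 (0.0627).

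Krt18 and Acta2 are shown with their promoter windows as the rises that mark epithelial and contractile genes, with the same capitals. Krt18 lies at chr15:102027966-102028265 on the plus strand and Acta2 at chr19:34255324-34255623 on the minus strand.
Krt18: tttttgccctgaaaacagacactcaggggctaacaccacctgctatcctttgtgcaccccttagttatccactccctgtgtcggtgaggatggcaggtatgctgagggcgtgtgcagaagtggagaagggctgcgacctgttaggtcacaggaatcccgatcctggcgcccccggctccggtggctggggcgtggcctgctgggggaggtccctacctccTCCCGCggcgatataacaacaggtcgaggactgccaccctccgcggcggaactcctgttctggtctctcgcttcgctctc
Acta2: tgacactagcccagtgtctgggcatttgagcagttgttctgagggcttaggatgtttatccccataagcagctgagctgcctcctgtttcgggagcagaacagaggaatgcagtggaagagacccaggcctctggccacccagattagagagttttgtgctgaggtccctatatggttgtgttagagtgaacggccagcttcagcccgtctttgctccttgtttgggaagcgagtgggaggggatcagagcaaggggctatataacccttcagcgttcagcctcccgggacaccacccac
The Krt18 window holds 1 TCCCGC, 30 bases before the start, and 17 CG dinucleotides. The Acta2 window holds 6 CG dinucleotides and no exact match of the 4 motifs. Near matches were not counted, among them ccctatatgg and ccttgtttgg for the CArG box and ctatataa for TATAAA. The result therefore does not mean that this promoter lacks such sites. Among the genes called higher, 131 of 187 matched a window, and TATAAA was present in 16% of those. It was present in 6.59% of the windows of all genes tested and in 13.6% of all windows. These shares were not tested.

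Acta2, smooth muscle actin, measured 148.2, 86.5, 75.9 and 80.6 CPM at day 10, against 4.65, 6.95, 9.09 and 12.7 CPM at day 4. The days did not overlap, and the log2 fold change was 3.62 ± 0.39 (SE, adjusted p = 0.00752, at most 0.027 without any 1 library). It was the only one of the 27 tested smooth muscle and serum response factor target genes to be called. Their median log2 fold change was 0.60, and 8 were higher at day 10 in all 4 pairs and 1 lower. How often all genes tested moved alike in the 4 pairs was not counted. The day 10 libraries lay wholly above the day 4 libraries for 6 of the 27 and wholly below for 1. Over all genes tested those shares were 6.33% and 4.05%. Cnn1 (calponin) and Myl9 (a myosin light chain), contractile genes of the same list, were not called, with adjusted p of 0.916 and 0.688, and neither was Tagln (transgelin), with 297.9, 187.0, 170.3 and 138.9 CPM at day 10, against 63.9, 137.4, 97.4 and 144.9 CPM at day 4 (adjusted p = 0.274).

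Matrix and mesenchymal genes rose in part. Of 29 collagen, laminin and matrix genes, 27 were tested and 4 rose (Col1a1, Col4a2, Col5a1 and Postn), with a median of 1.35. Col5a1, a fibrillar collagen, measured 174.0, 138.9, 179.1 and 89.0 CPM at day 10, against 22.4, 31.9, 19.3 and 11.2 CPM at day 4 (log2 fold change 2.79 ± 0.32 SE, adjusted p = 0.00773). Col1a1, another fibrillar collagen, measured 3.05, 8.10, 13.4 and 5.42 CPM at day 10, against 0.139, 0.188, 0.364 and 0 CPM at day 4 (adjusted p = 0.00972). Both were higher in every day 10 library and held without any 1 library. Of 19 genes of mesenchymal transition, 17 were tested and 4 rose, among them Loxl2, Tgfb2 and Vim, with a median of 1.81. Vim, the intermediate filament protein vimentin, measured 603.3, 635.5, 774.6 and 730.7 CPM at day 10, against 166.1, 330.1, 58.5 and 127.5 CPM at day 4 (log2 fold change 2.16 ± 0.43 SE, adjusted p = 0.0326, and up to 0.11 without the day 4 library of E14 diff3). Loxl2 and Tgfb2 lost their calls in 7 of the 8 fits each, Postn in 6 and Col4a2 in 3.

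Markers of other cells that such cultures could hold were low or partly called. The summed level of 16 fibroblast markers was 83.8 to 129.9 CPM at day 10 and 40.3 to 56.9 CPM at day 4, with 10 tested and 2 called higher (Col1a1 and Postn); Lum, Twist2 and Prrx1 had too few reads to test. That of 14 endothelial and blood markers was 18.4 to 49.2 CPM at day 10 and 10.99 to 29.6 CPM at day 4, with no reads of Emcn or Hbb-bh1 and 1 call of 4 tested, Runx1. The median log2 fold change of the 4 was −1.73. The day 10 libraries lay wholly above for 1 of them and wholly below for 2, against 6.33% and 4.05% of all genes tested. Runx1, a transcription factor of blood formation, measured 21.3, 38.4, 12.6 and 17.7 CPM at day 10, against 1.53, 3.24, 1.96 and 2.55 CPM at day 4 (adjusted p = 0.00861). It made up most of the summed level of these markers in each day 10 library. None of 7 cardiac genes tested was called. The part of such cells in these results was not tested.

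**Figure D4:**
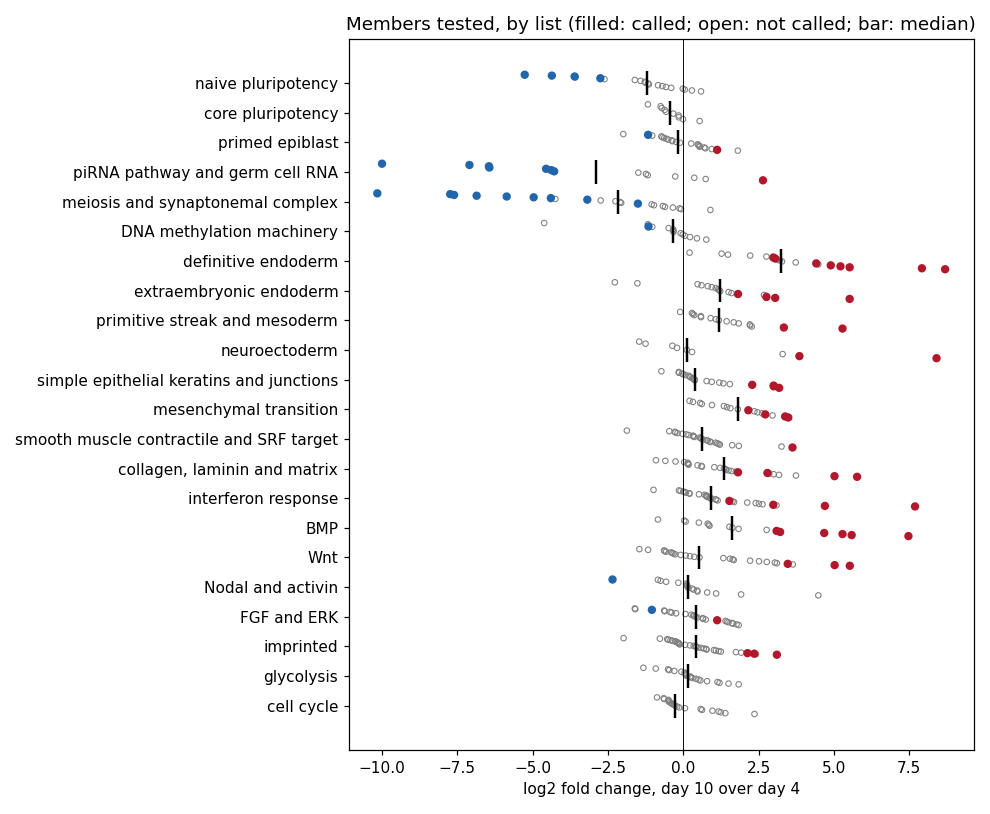
Log2 fold change of day 10 over day 4 (horizontal axis) of each tested member of 22 gene lists (rows). Filled points passed the test, red higher and blue lower at day 10, open points did not, and bars are medians; the germ line lists reach furthest left and the definitive endoderm list furthest right.

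Signalling genes were grouped by pathway, and differences between the pathways were not tested. Of 20 BMP genes, 17 were tested and 6 rose, none fell, and the median was 1.63. They were the ligands Bmp2 and Bmp5, the extracellular regulators Bmper and Nog, and the target genes Id1 and Id3. Bmp2 measured 30.7, 70.0, 19.9 and 11.7 CPM at day 10, against 0.277, 4.41, 0 and 0 CPM at day 4 (log2 fold change 5.28 ± 0.995 SE, adjusted p = 0.0276, and up to 0.081 without the day 10 library of PGK diff3). Nog, the BMP antagonist noggin, measured 14.1, 7.54, 20.1 and 5.66 CPM at day 10, against 0.277, 0.751, 0.291 and 0.510 CPM at day 4 (log2 fold change 4.68 ± 0.67 SE, adjusted p = 0.00972). Ligand and antagonist were both higher in every day 10 library than in any day 4 library.

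Bmper, a secreted BMP-binding protein, measured 7.66, 20.2, 1.76 and 4.54 CPM at day 10, against 0.208, 0.188, 0.146 and 0 CPM at day 4 (adjusted p = 0.00861). Bmper and Nog kept their calls without any 1 library. Id1 measured 46.7, 52.6, 24.8 and 27.98 CPM at day 10, against 1.39, 4.18, 2.62 and 10.2 CPM at day 4 (adjusted p = 0.0286, and up to 0.0899 without the day 4 library of E14 diff2). Id3 (adjusted p = 0.0483) and Bmp5 (0.0326) were not called with each pair of libraries as a block, where their adjusted p was 0.0569 and 0.0715. Bmp5 had no reads at day 4 and 1.07, 1.59, 2.08 and 1.16 CPM at day 10, at least 25.3-fold higher.

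Of 29 Wnt genes, 27 were tested and 3 rose (Dkk1, Lgr5 and Sfrp5), with a median of 0.54. Sfrp5, a secreted Wnt inhibitor, measured 29.7, 61.6, 4.71 and 21.2 CPM at day 10, against 0.485, 1.03, 0.8003 and 1.02 CPM at day 4 (log2 fold change 5.02 ± 0.72 SE, adjusted p = 0.00953, at most 0.0406 without any 1 library). Dkk1, another secreted inhibitor, measured 40.9, 115.9, 29.3 and 37.9 CPM at day 10, against 0.0694, 4.13, 0 and 2.04 CPM at day 4 (adjusted p = 0.0323, and up to 0.0999 without the day 10 library of PGK diff3). Lgr5, the R-spondin receptor, lost its call in 6 of the 8 fits. Of 18 tested Nodal and activin genes, 1 was called, Pcsk6, the protease Pace4 that processes Nodal, which fell. It measured 8.16, 7.54, 1.68 and 5.94 CPM at day 10, against 47.3, 25.9, 21.7 and 21.4 CPM at day 4 (adjusted p = 0.0229, and up to 0.0919 without the day 4 library of PGK diff2). Lefty1, the feedback inhibitor of Nodal, measured 357.1, 662.0, 141.6 and 217.4 CPM at day 10, against 176.0, 68.9, 190.0 and 133.6 CPM at day 4, higher in 3 of 4 pairs and not called (adjusted p = 0.328).

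Of 25 tested FGF and ERK genes, 1 rose and 1 fell. Fgf5, the ligand that marks the primed epiblast, measured 293.7, 440.1, 229.5 and 286.5 CPM at day 10, against 131.1, 208.4, 133.4 and 98.4 CPM at day 4 (log2 fold change 1.12 ± 0.24 SE, adjusted p = 0.0443). Etv5, a transcription factor downstream of ERK, measured 142.1, 108.8, 145.6 and 165.0 CPM at day 10, against 351.3, 239.8, 272.7 and 278.0 CPM at day 4 (log2 fold change −1.04 ± 0.22 SE, adjusted p = 0.0438). The days did not overlap for either, but each lost its call in all 8 fits without 1 library, with an adjusted p of up to 0.14 for Fgf5 and 0.146 for Etv5. Fgf5 also belongs to the 22 primed epiblast genes tested, of which it was the only one to rise and Dnmt3a the only one to fall.

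Interferon response genes rose in a few members. Of 37 genes in the tables, 31 were tested and 4 rose (B2m, Isg15, Isg20 and Usp18), with a median of 0.91. Usp18, the protease that removes Isg15 from proteins, measured 13.8, 9.65, 12.9 and 3.09 CPM at day 10, against 2 reads in all at day 4 (adjusted p = 0.00773). Isg15, the ubiquitin-like modifier itself, measured 10.7, 12.1, 12.9 and 5.62 CPM at day 10, against 0.694, 0.751, 0.146 and 0 CPM at day 4 (log2 fold change 4.70 ± 0.67 SE, adjusted p = 0.00972). Both held without any 1 library. B2m and Isg20 were not called with each pair as a block (adjusted p = 0.0567 and 0.0638), and each lost its call in all 8 fits that leave out a library, with up to 0.134 for B2m and 0.161 for Isg20 without the day 4 library of E14 diff2. Ifit3, Irf7, Mx1 and Mx2 had too few reads to test.

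Of 33 tested imprinted genes, 3 rose (Igf2, Peg10 and Sgce), with a median of 0.41. Igf2, the growth factor expressed from the paternal copy, measured 32.6, 33.3, 328.9 and 139.2 CPM at day 10, against 3.40, 7.70, 4.22 and 34.7 CPM at day 4. It was higher at day 10 in all 4 pairs, but the lowest day 10 library lay below the highest day 4 library, and its adjusted p was 0.0352, or 0.0563 with each pair as a block. Peg10, a retrotransposon-derived gene, measured 1263, 1275, 590.7 and 421.7 CPM at day 10, against 597.7, 527.7, 30.7 and 53.6 CPM at day 4 (adjusted p = 0.0428, or 0.0673 with each pair as a block). Its day 4 levels were higher in PGK than in E14, and without the block for line its adjusted p was 0.44. In the fits without 1 library Peg10 lost its call in all 8, Igf2 in 6 and Sgce in 4, with an adjusted p of up to 0.142 for Peg10 without the day 4 library of E14 diff3.

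No gene was called among the lists of threonine and betaine metabolism, serine synthesis and amino acid stress, glycolysis, respiratory chain, p53 targets, cell cycle, retinoic acid and Hox genes. In the Hox list 1 of 21 genes had enough reads to test. Their medians lay between −0.98 and 1.13, the extremes being the Hox gene and the 10 tested retinoic acid genes.

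The largest rises outside these lists were of mixed function. Capn6, an X-linked member of the calpain family, measured 49.1, 54.5, 86.9 and 49.9 CPM at day 10, against 0.902, 0.235, 0.655 and 2.55 CPM at day 4 (log2 fold change 6.24 ± 0.56 SE, adjusted p = 0.00233). At day 0 it had 35.0, 52.9, 8.82 and 30.6 CPM, so day 4 was its lowest stage. Pga5, a pepsinogen, measured 122.0, 174.1, 44.6 and 91.0 CPM at day 10, against 0.139, 1.27, 0 and 3.57 CPM at day 4 (log2 fold change 7.24 ± 0.99 SE, adjusted p = 0.00861). Tph1, the tryptophan hydroxylase of serotonin synthesis, measured 15.5, 23.3, 4.07 and 8.15 CPM at day 10, against 2 reads in all at day 4 (adjusted p = 0.00233). Of the 187 genes called higher, 170 (90.9%) had all 8 later libraries above all 4 day 4 libraries, against 1116 of the 13136 genes tested (8.5%); these genes were called for low day 4 levels, so here too the selection fixes much of the contrast. The mean of the later libraries was above that of day 10 for 131 of the 187 (70.1%), against 6242 of all genes tested (47.5%). For the 79 genes called lower it was above that of day 10 for 44 (55.7%) and below it for 34 (43%), against 47.5% and 52.5% of all genes tested. The day 10 level enters the calls as well.

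No gene was called for a difference of the change between PGK and E14 by edgeR's test (0 of 13136, 0%). An unadjusted p under 0.05 was reached by 537 of the 13136 genes. That is no more than this threshold gives without any difference between lines. DESeq2 called 36. All 266 calls had the same direction in fits of the diff2 libraries alone and of the diff3 libraries alone, and in the PGK libraries alone; in the E14 libraries alone 264 could be fitted, all with the same direction. The 8 libraries entered both the pooled and the separate fits. Acta2 had a log2 fold change of 4.32 in the fit of PGK alone and 2.86 in that of E14 alone. Xist, the RNA that coats the inactive X chromosome, measured 1545 and 1447 CPM in PGK at day 10, against 1308 and 2000 CPM at day 4, and at most 5.51 CPM in E14 at day 10, against at most 17.3 CPM at day 4 (adjusted p = 0.47). Of 452 X-linked genes tested, 7 were called higher and 5 lower, and of 11890 autosomal genes 174 and 66. Over all genes tested the shares were 1.42% and 0.601%. The median log2 fold change was −0.148 for X-linked and 0.0262 for autosomal genes. The median difference of the change, PGK minus E14, was −0.339 for X-linked and −0.017 for autosomal genes. These medians were not tested.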

How the data were processed

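Raw counts per gene of both lines were deposited by the authors as a table per line, per the file headers, and the tables were joined on the gene name; deposited normalized and variance-stabilized values were not used. Per the submitters' processing notes, CASAVA 1.8.2, Cuffdiff and DESeq2 were used with build GRCm38 (mm10). The aligner, gene annotation and strand setting were not given in the sources used here, so reads of overlapping and antisense genes may be mixed. Of 23361 genes, 13136 passed filterByExpr (minimum count 10). The tests were robust quasi-likelihood tests in edgeR 4.0.16 (R 4.3.3) on the 8 libraries, with TMM size factors, line as a block, 5 residual degrees of freedom, Benjamini-Hochberg adjustment over all genes tested and a threshold of 0.05. The common biological coefficient of variation was 0.442. The difference between lines used a line by day term. CPM values use TMM factors over all 20 libraries. Floors of 3 counts cover counting error only. The fits were tested on simulated data with known changes. The labels do not say that the libraries of a group came from separate cultures beyond their experiment names, so p-values measure the spread between these libraries.

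Libraries of the same line and experiment name form the pairs of the replicate block: per the labels the name marks a shared differentiation experiment, and deviations from the group means correlated within pairs at 0.561 in PGK and 0.254 in E14. Alternatives were other blocks, RLE size factors, other filters, DESeq2 1.42.0, all 20 libraries in the fit, each library left out, and each experiment or line alone. Genes named are 16 always reported, up to 3 called genes with the smallest adjusted p per list, the 10 largest rises and falls that reach 1 log2 CPM and move alike in 4 pairs, other called list members, list members not called that are given with their values, and 12 genes chosen after their values were seen. The members and lists were chosen with earlier results of these data known. Of the names, 27 are dates and were not called. Some genes named by these rules are not reported here.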

Additional observations from a re-analysis of the deposited data

Results flagged for a closer look

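For 27 of 212 day groups of 4 libraries checked, the highest or lowest library lay far from the other 3 for its gene. Chance flags about 1 in 20 such groups only where values are normally distributed, which was not checked for these CPM values. A group with counts in only 1 library is always flagged, as for Rpl10l, Tex11, Hesx1, Postn, Kcnk16 and Syce1. The genes were named for their change, so the groups are not a random sample. In the day 4 library of PGK diff3, 7 genes stood apart: T with 487 CPM (next 27.9), Foxa2 with 22.3 (3.68), Bmp2 with 4.41 (0.277), Cxcr4 with 5.3 (1.11), Lgr5 with 2.72 (0.873), Postn with 0.422 (0) and Kcnk16 with 0.0469 (0), the last from a single read. In that of PGK diff2, 4 genes did: Ooep with 37.3 CPM (next 6.43), Hormad1 with 30.2 (5.54), Slc25a31 with 12 (4.22) and Hesx1 with 0.0694 (0), again a single read. In that of E14 diff3, the shallow library, 3 genes did: Igf2 with 34.7 CPM (next 7.7), Spink3 with 1.02 (0.139) and Shh with 0.51 (0.0694).

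At day 10, PGK diff2 stood apart for Acta2 with 148 CPM (next 86.5), Dppa5a with 14.2 (2.08), D1Pas1 with 0.742 (0.0799), Rpl10l with 0.577 (0) and Tex11 with 0.0824 (0). PGK diff3 stood apart at day 10 for Dkk1 with 116 CPM (next 40.9) and Slc25a31 with 0.302 (0.0401), and was the lowest for Krt18 with 512 (637) and Dnmt3a with 115 (146). E14 diff3 stood apart at day 10 for Tdh with 18.6 CPM (next 2.8) and Syce1 with 0.201 (0). E14 diff2 was the highest at day 10 for Capn6 with 86.9 CPM (next 54.5) and the lowest for Tdrd1 with 0.16 (0.689).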

How the results depend on the processing

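No called gene that the text names changed direction under any alternative run. The 266 calls (187 higher, 79 lower) became 510 (346, 164) with the replicate block as experiment number added to line, 593 (393, 200) without the low-count filter, 1177 (733, 444) with DESeq2 and 584 (433, 151) with all 20 libraries in the fit. With the replicate block of experiment within line they were 334 (220, 114), with RLE size factors 264, with the stricter filter 261 and without a block for line 220. Leaving out 1 library gave 93 to 233 calls, 66 to 162 higher and 27 to 71 lower. The diff3 libraries alone gave 454 (289, 165), the diff2 libraries alone 270, the E14 libraries alone 130 (108, 22) and the PGK libraries alone 0 (0, 0) by edgeR, with 1588 genes at an unadjusted p under 0.05; the cause was not tested. The difference between lines, 0 in edgeR, was 26 without the filter and 36 with DESeq2, and 0 in each fit that left out 1 library. Of 91 called genes that the text names, 46 kept their call without any 1 library and 45 lost it in at least 1 case. The replicate block of experiment within line ended the calls of B2m, Bmp5, Id3, Igf2, Isg20 and Peg10, added Foxa2, and changed no other call of a named gene; with the experiment number added to line all 91 were kept, and Foxa2 and Gata6 were added. Without the low-count filter 6 of the 91 lost their call: Bmp2 (adjusted p = 0.0936), Dkk1 (0.161), Dppa5a (0.133), Id3 (0.0549), Igf2 (0.118) and Pga5 (0.0559). Without the block for line 16 did: Bmp2, Dppa2, Dppa5a, Fgf5, Gata4, Hhex, Igf2, Isg20, Isl1, Loxl2, Nrp1, Ooep, Peg10, Sgce, Sox21 and Sycp3, with adjusted p from 0.0514 (Sox21) to 0.44 (Peg10). Depth limits the day 4 library of E14 diff3, where levels under 1.53 CPM rest on fewer than 3 reads; without that library 189 genes were called (119 higher, 70 lower).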

Other observations

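Further germ cell genes outside the lists fell, named after their values were seen among those that kept their call without any 1 library. Hsf2bp, a meiotic recombination factor, measured 0.989, 0.431, 0.559 and 0.642 CPM at day 10, against 59.9, 22.2, 11.6 and 10.7 CPM at day 4 (log2 fold change −5.07 ± 0.59 SE, adjusted p = 0.00773). Rnf17, a Tudor protein of the germ line, measured 12.5, 6.07, 13.3 and 10.2 CPM at day 10, against 72.2, 54.3, 43.7 and 80.1 CPM at day 4 (log2 fold change −2.59 ± 0.34 SE, adjusted p = 0.00789). Pnldc1, the nuclease that trims piRNA ends, fell by 4.10 on the log2 scale (adjusted p = 0.00789), Usp26, an X-linked deubiquitinase of the testis, by 5.25 (0.00789), Psma8, the proteasome subunit of spermatocytes, by 6.24 (0.00809) and D1Pas1, an autosomal copy of Ddx3x in the testis whose reads may be shared with its parent, by 6.20 (0.0128). The days did not overlap for any of these 6 genes.

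Among rises outside the lists, chosen in the same way, Amot, the X-linked Hippo pathway scaffold angiomotin, reached the highest level. It measured 1138, 2771, 429.0 and 468.8 CPM at day 10, against 46.7, 114.7, 54.4 and 99.5 CPM at day 4 (log2 fold change 3.58 ± 0.55 SE, adjusted p = 0.013). Tnc, the matrix glycoprotein tenascin C, measured 38.8, 62.5, 40.0 and 19.7 CPM at day 10, against 0.694, 1.83, 0.291 and 0.510 CPM at day 4 (log2 fold change 5.68 ± 0.52 SE, adjusted p = 0.00233). The guidance genes Nrp1, Slit1 and Slit2 had log2 fold changes of 4.73 ± 0.63, 4.13 ± 0.62 and 3.49 ± 0.46 (SE, adjusted p = 0.00789, 0.0112 and 0.00789), and the call of Nrp1 was lost without the block for line (adjusted p = 0.0752). Pifo, a gene of primary cilia, measured 8.16, 7.88, 5.99 and 8.71 CPM at day 10, against 0.485, 0.657, 0.509 and 1.02 CPM at day 4 (adjusted p = 0.00978).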
